A study of Vitis vinifera with 66 samples.

Results

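The stilbene synthase genes of grapevine stand in tandem clusters on chromosomes 16 and 10, and the members described here are these clusters with MYB14 and MYB15, a pair of MYB transcription factors on chromosomes 7 and 5. They were chosen by identifier. All IDs of the counts table from VIT_16s0100g00750 to VIT_16s0100g01200 (35 genes) and from VIT_10s0042g00840 to VIT_10s0042g00930 (10 genes) were taken, with MYB14 (VIT_07s0005g03340) and MYB15 (VIT_05s0049g01020), in all 47 of the 29537 IDs in the table. The sources at hand pair none of these IDs with a name or a description, so the family names rest on the choice of IDs alone. RNA was extracted from berries of potted Sauvignon Blanc vines, 1 clone on 1 rootstock, and 66 libraries were sequenced, 3 for each of 22 groups. FH vines were waterlogged at budbreak in spring and met a drought and then a heatwave in summer. H vines met only the summer drought and heatwave, F vines were only waterlogged in spring, and C vines were controls that met neither stress. Samples were taken at T0, before the irrigation was cut, T1, under drought just before the heatwave, T2, in its middle, T3, at its end, T4, in recovery, and T5, at harvest, with T0 libraries of F and C only.

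A stilbene synthase condenses p-coumaroyl-CoA with malonyl-CoA to resveratrol, the parent compound of the grapevine stilbenes. Chalcone synthase uses the same substrates at the entry to the flavonoids, and hydroxycinnamoyl transferases (HCT) draw p-coumaroyl-CoA towards the monolignols. Stilbenes act as phytoalexins. They are known to build up in leaves and berries after infection, wounding and ultraviolet light, and in the berry skin during ripening. MYB14 and MYB15 are known from grapevine as activators of stilbene synthase promoters.

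The libraries held 15927671 to 24150978 counted reads, with a median of 19168492. Levels are given as CPM, reads scaled to the size of the library with the TMM factors, and the value of a group is a mean ± SD over its 3 libraries. A gene was called changed at an adjusted p under 0.05 in edgeR's quasi-likelihood test with a fold change of at least 1.5. The standard errors (SE) of the log2 fold changes are approximate. Each was computed as the absolute log2 fold change divided by the square root of the F statistic of the same test. Of the 19553 genes tested, 18 were members: both MYB genes, 15 genes of the chromosome 16 cluster and 1 gene of the chromosome 10 cluster. Another 8 members had no read in any library, 5 on chromosome 16 and 3 on chromosome 10. The other 21 had 6 to 112 reads over all libraries, at most 47 in one library, and were not tested. Only reads that mapped to 1 place were counted, so copies with near-identical sequences may have lost reads, and the split of reads between single members is uncertain. A tested stilbene synthase had to reach 0.5 CPM in 3 libraries somewhere in the series, so counts over the tested members are given as a description. H and FH vines stood in another tunnel than F and C vines, so the summer stress and the tunnel cannot be told apart, and in RNA of whole berries fewer cells with a transcript and less transcript per cell cannot be told apart either. ACO1 (VIT_11s0016g02380), an enzyme of ethylene synthesis, was used to follow the berries from T0 to T5, and was higher at T5 than at T0 in C with a log2 fold change of 8.54. HSP101 (VIT_17s0000g07190), a heat-shock chaperone, had 1295 ± 755 CPM in FH and 458 ± 236 CPM in F at T2, and 989 ± 417 CPM in H and 636 ± 435 CPM in C, and was called in neither comparison (adjusted p = 0.401 and 0.693). At T1, before the heatwave, it had 941 ± 1147 CPM in FH, 440 ± 226 CPM in F, 1411 ± 950 CPM in H and 1146 ± 135 CPM in C. High levels of HSP101 were thus not particular to the heatwave.

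MYB15 was the most abundant member, with 47037 of the members' 55497 reads, and its level was highest in the heatwave. At T2, MYB15 (VIT_05s0049g01020) had 1272, 2116 and 2147 reads in H, against 227, 566 and 756 reads in C. Every H library lay above every C library. The means were 104 ± 16.7 CPM in H and 30.0 ± 16.1 CPM in C, a log2 fold change of 1.80 (SE 0.41, adjusted p = 0.00247), and the call was kept in all 6 fits that left out 1 of these libraries. After spring flooding, FH had 864, 1088 and 1701 reads at T2, against 347, 481 and 543 reads in F. These groups did not overlap either, with means of 68.3 ± 22.9 CPM in FH and 26.3 ± 6.51 CPM in F. The log2 fold change of FH over F was 1.38 (SE 0.41, adjusted p = 0.0481), close to the threshold, and the call was kept only without FH replicate 1 or F replicate 3 (adjusted p = 0.0459 to 0.229 over the 6 fits). It was also lost with the replicate number as a block, with no filter on the reads and in a fit to the T2 libraries alone, with adjusted p-values of 0.0537, 0.0660 and 0.133.

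At T3, the end of the heatwave, MYB15 (VIT_05s0049g01020) had 1153, 1377 and 1982 reads in FH, against 696, 944 and 1090 reads in F. It had 936, 1044 and 1072 reads in H, against 505, 562 and 770 reads in C. Neither pair of groups overlapped, but neither was called, with log2 fold changes of 0.76 for FH over F (adjusted p = 0.308) and 0.93 for H over C (adjusted p = 0.273). In recovery at T4, FH had 628, 839 and 1770 reads, against 301, 414 and 581 reads in F, and H had 635, 703 and 783 reads, against 429, 488 and 649 reads in C. FH replicate 2 held the 1770 reads and stood apart from the other FH libraries in more than MYB15, with 2.15 CPM of ACO1, against 79.5 and 91.6 CPM in the others, and 2178 CPM of HSP101, against 345 and 30.8 CPM. The part of these differences in the result was not tested. The means at T4 were 58.9 ± 43.8 CPM in FH and 20.8 ± 7.47 CPM in F, a difference that was called with DESeq2 (adjusted p = 0.0311) but not with edgeR (adjusted p = 0.117). EdgeR called it without FH replicate 1 (log2 fold change 1.84, adjusted p = 0.0135) or FH replicate 3 (1.72, adjusted p = 0.0496). Both of these fits kept FH replicate 2. The log2 fold change of H over C at T4 was 0.51 (adjusted p = 0.590). At harvest the 4 treatments lay close together, with means of 36.5 ± 15.97 CPM in FH, 32.7 ± 4.34 CPM in H, 32.7 ± 7.04 CPM in F and 36.4 ± 9.40 CPM in C.

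Spring flooding was tested on its own in the F and C berries. MYB15 (VIT_05s0049g01020) had 476, 574 and 848 reads in F at T1, against 209, 256 and 278 reads in C. The means were 35.3 ± 12.0 CPM in F and 12.8 ± 1.53 CPM in C, and the log2 fold change of F over C was 1.47 (SE 0.41, adjusted p = 0.0102). It was 1.16 without F replicate 2, the highest library, and no longer called (adjusted p = 0.0870). In the droughted berries of T1, FH had 131, 510 and 648 reads, against 202, 228 and 234 reads in H. The FH libraries lay on both sides of the H libraries, and the log2 fold change of FH over H was 1.01 (adjusted p = 0.186). Without FH replicate 2, the lowest, it was 1.45 and called (adjusted p = 0.0339). This library had 0.261 CPM of ACO1, against 29.02 and 49.9 CPM in the other FH libraries, and 2265 CPM of HSP101, against 268 and 290.5 CPM, and the part of these differences in the result was not tested. ACO1 (VIT_11s0016g02380) was also higher in F than in C at T1, with a log2 fold change of 3.97 (adjusted p = 0.0102), and its part in the result for MYB15 was not tested.

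MYB15 (VIT_05s0049g01020) was lowest at T0, with 84, 145 and 154 reads in F and 68, 76 and 102 reads in C. In C it rose at T1 (log2 fold change of T1 over T0 1.62, SE 0.43, adjusted p = 0.00578). T2 over T1 in C was 1.23 (adjusted p = 0.0252), with libraries that overlapped. Of the 6 fits that left out a library, that second step kept its call only without T2 C replicate 1, and was 0.86 without T2 C replicate 3 (adjusted p = 0.173). In F the log2 fold change of T1 over T0 was 2.49 (SE 0.43, adjusted p = 7.22e-06). H and FH had no libraries at T0, so a step from T0 to T1 could not be seen in them. At T1 the mean in H was 11.7 ± 1.17 CPM, against 12.8 ± 1.53 CPM in C. T2 over T1, which spans the onset of the heatwave, was 3.15 in H (SE 0.44, adjusted p = 1.07e-06) and 1.53 in FH (SE 0.41, adjusted p = 0.0175). The step in FH was lost without T1 FH replicate 2 (1.09, adjusted p = 0.152), T2 FH replicate 2 or T2 FH replicate 3. Over the whole season, T5 over T0 was 3.13 in C (SE 0.45, adjusted p = 6.64e-08) and 2.38 in F (SE 0.43, adjusted p = 6.99e-06). In the order of the 22 group means, H at T2 came first, then FH at T3, FH at T2 and H at T3, and C at T0 came last. Neighbours in this order overlapped, other than F at T4 above C at T1 and H at T1 above F at T0.

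**Figure D1:**
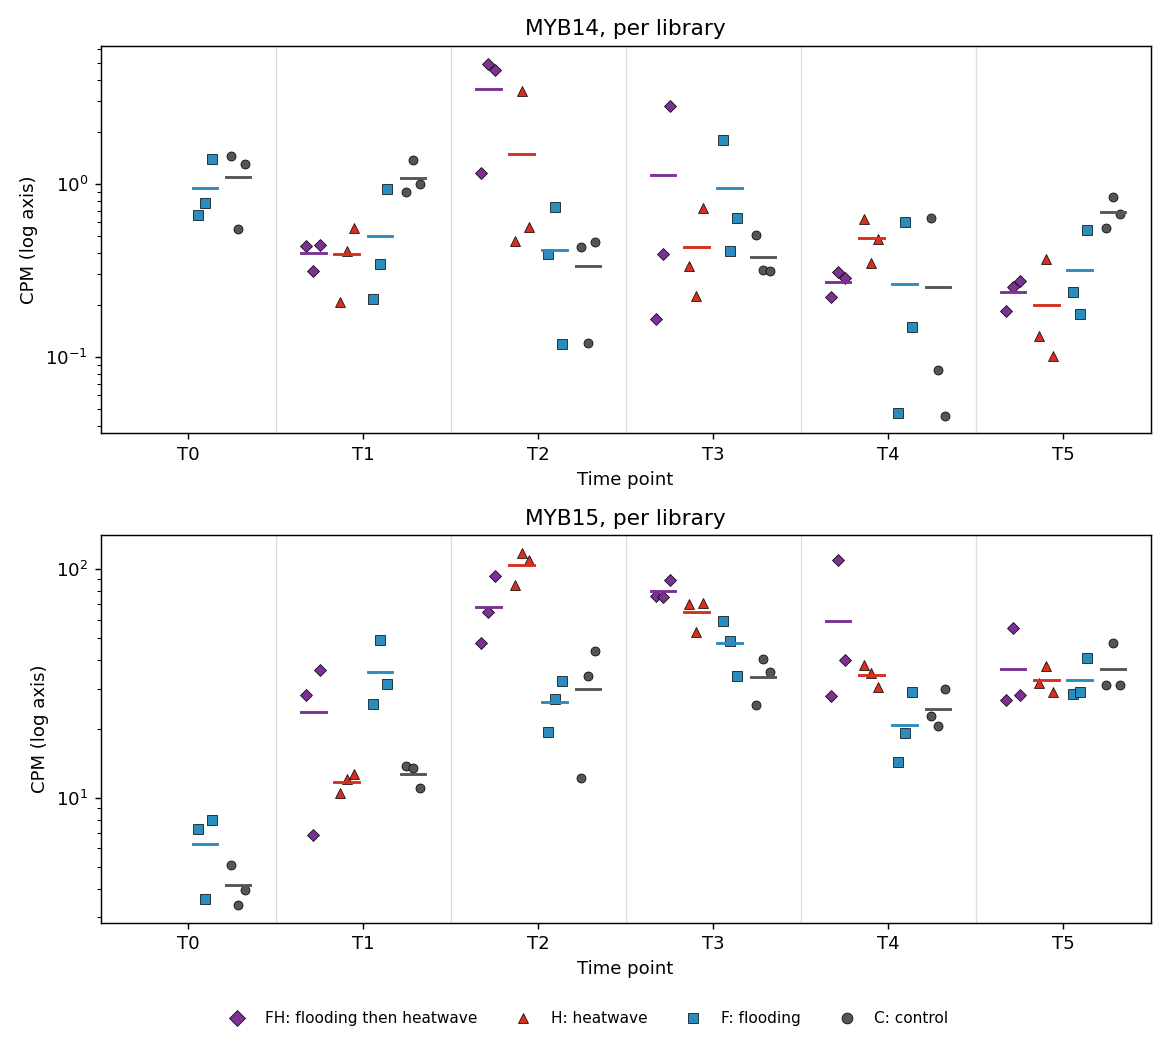
MYB14 and MYB15 by time point and treatment, in CPM on log axes. Each point is 1 library, each bar the mean of 3, and within a time point FH, H, F and C run left to right. MYB15 was highest in H at T2 (104 ± 16.7 CPM), while MYB14 was highest in FH at T2 (3.54 ± 2.08 CPM) with single high libraries in H at T2 and FH at T3.

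MYB14 was far less abundant, with 908 reads in all, and its highest values sat in few libraries of the heatwave. At T0 it had 1.10 ± 0.480 CPM in C and 0.942 ± 0.398 CPM in F, and at T1 1.09 ± 0.248 CPM in C. At T3 it had 1.13 ± 1.48 CPM in FH and 0.430 ± 0.264 CPM in H. F replicate 1 of T3, which met no heatwave, had 1.80 CPM. At T2, MYB14 (VIT_07s0005g03340) had 21, 83 and 83 reads in FH, against 2, 7 and 13 reads in F. No FH library overlapped F, and the means were 3.54 ± 2.08 CPM in FH and 0.415 ± 0.307 CPM in F. The log2 fold change of FH over F was 3.07 (SE 0.80, adjusted p = 0.0284). The direction held in all 6 fits that left out a library (2.64 to 3.75), but the call was kept only without FH replicate 1 (adjusted p = 0.0237 to 0.140). A fit to the T2 libraries alone gave an adjusted p of 0.135. In H at T2 the reads were 7, 11 and 62, against 2, 8 and 8 in C. These ranges overlapped in reads but not in CPM. The C libraries of T1 had 18, 19 and 26 reads, and the log2 fold change of T2 over T1 in C was -1.66 (adjusted p = 0.126). H replicate 2 held most of the H reads, and the log2 fold change of H over C was 2.12 (SE 0.81, adjusted p = 0.0625). Without H replicate 1 it was 2.53 and called (adjusted p = 0.0287), and over the 6 fits the adjusted p ran from 0.0287 to 0.714.

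In FH, MYB14 was higher after the step into the heatwave, with 21, 83 and 83 reads at T2 and 6, 8 and 8 at T1. The log2 fold change of T2 over T1 was 3.13 (SE 0.80, adjusted p = 0.0134), and the call was lost without T1 FH replicate 2 (adjusted p = 0.0821) or T2 FH replicate 2 (adjusted p = 0.0652). By T3, MYB14 (VIT_07s0005g03340) was high in 1 FH library alone, with 3, 6 and 63 reads in FH, against 8, 13 and 33 reads in F. H at T3 had 4, 5 and 11 reads, against 5, 6 and 10 in C. The groups overlapped in both comparisons. Outside the heatwave MYB14 was higher in the controls in some comparisons without passing the test. At T1, H had 4, 8 and 10 reads, against 18, 19 and 26 in C, with a log2 fold change of -1.46 (adjusted p = 0.542). At T5, H had 2, 3 and 8 reads, against 14, 15 and 20 in C, with a log2 fold change of -1.74 (adjusted p = 0.158). Neither pair overlapped. With the T5 libraries fitted alone, the difference at T5 was called (adjusted p = 0.0415).

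The chromosome 16 cluster was weakly expressed, and its reads were unevenly spread over the libraries of a group. Its 35 members took 6583 reads in all. The library with the most reads held 37.3 to 89.5% of the reads of its group (median 64.8% over the 22 groups), and had 1.27 to 30.5 times the reads of the lowest. At T0 the cluster had 30, 6 and 42 reads in F replicates 1 to 3, and 13, 6 and 6 in C. At T1 it had 22, 6 and 19 reads in FH, 3, 4 and 17 in H, 2, 32 and 17 in F, and 2, 9 and 7 in C. No library of T0 or T1 passed 42 reads, and together the T0 libraries had 103 reads over 19 members and the T1 libraries 140 reads over 21 members.

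From T2 the cluster was high in some libraries of each treatment. At T2 it had 45, 379 and 255 reads in FH replicates 1 to 3, against 30, 38 and 34 in F, and 39, 211 and 21 reads in H, against 14, 16 and 3 in C. Every FH library lay above every F library, and every H library above every C library. Summed over the members, the means were 13.0 ± 10.1 CPM in FH and 1.95 ± 0.239 CPM in F, and 5.13 ± 5.74 CPM in H and 0.630 ± 0.410 CPM in C. A sum over the members was not tested. The libraries that led the cluster at T2, FH replicates 2 and 3 and H replicate 2, were also those that led MYB14, with 83, 83 and 62 reads.

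At T3 the order of the treatments was another. The cluster had 37, 15 and 141 reads in FH replicates 1 to 3, against 107, 208 and 1280 in F, and 26, 60 and 12 reads in H, against 25, 14 and 48 in C. F was highest at T3, with 26.3 ± 31.4 CPM, and F replicate 3 alone held 1280 reads, 19.4% of all reads of the cluster. This library was the highest of the 66 for 23 of the 30 chromosome 16 members that had reads and for 5 of 7 on chromosome 10. At T4 the cluster had 71, 8 and 244 reads in FH, 57, 143 and 14 in H, 19, 272 and 25 in F, and 19, 50 and 189 in C. In each treatment 1 library of T4 was high. At T5 it had 26, 554 and 39 reads in FH, 21, 333 and 50 in H, 64, 41 and 312 in F, and 291, 332 and 108 in C. The controls at harvest were the group of T5 whose 3 libraries were all above 100 reads, with 10.1 ± 4.70 CPM, against 8.81 ± 12.7 CPM in FH, 6.25 ± 7.86 CPM in H and 6.28 ± 6.71 CPM in F.

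**Figure D2:**
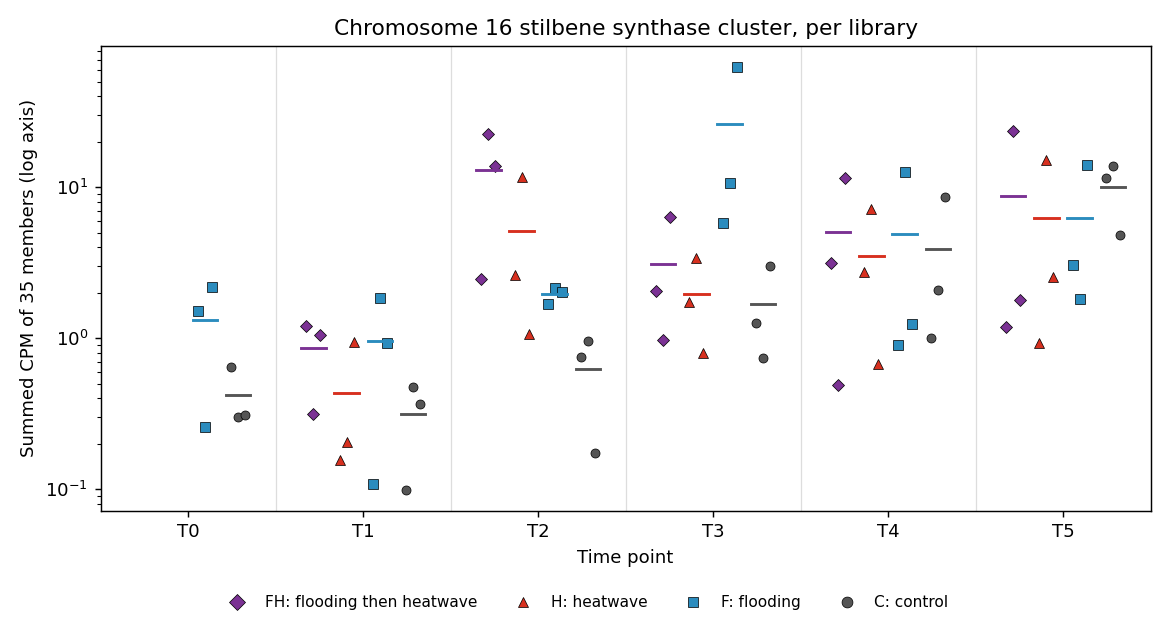
Summed level of the 35 members of the chromosome 16 cluster by time point, in CPM on a log axis. Each point is 1 library and each bar the mean of 3, with FH, H, F and C left to right. F replicate 3 at T3 is the highest point, and in C the mean was 10.1 CPM at T5 and 0.419 CPM at T0.

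VIT_16s0100g01020 led the cluster with 1231 reads (18.7% of its total), followed by VIT_16s0100g01100 with 753 (11.4%) and VIT_16s0100g01170 with 507 (7.70%). The next were VIT_16s0100g00750 with 389 reads, VIT_16s0100g00900 with 367, VIT_16s0100g00770 with 359, VIT_16s0100g00830 with 307 and VIT_16s0100g00780 with 253.

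VIT_16s0100g01020 had 0 to 2 reads in every library of T0. At T1 it had 0, 0 and 5 reads in FH, 0, 0 and 2 in H, 0, 2 and 11 in F, and 0, 0 and 2 in C. At T2 it had 26, 50 and 101 reads in FH, against 5, 8 and 11 in F. It had 7, 11 and 75 reads in H at T2, against 0, 0 and 9 in C. FH and F did not overlap, whereas the C library with 9 reads lay within the range of H. The log2 fold change of FH over F was 2.86 (SE 1.27, adjusted p = 0.183) and that of H over C was 3.28 (SE 1.42, adjusted p = 0.102). Neither was called, though H over C was called without C replicate 2, the library with 9 reads (adjusted p = 0.0413). At T3 the reads were 4, 8 and 44 in FH, against 31, 49 and 164 in F, and 3, 7 and 15 in H, against 2, 8 and 10 in C. F at T3 was above C at T3 in all libraries, with a log2 fold change of F over C of 3.43 (adjusted p = 0.590). At T4 it had 1, 17 and 44 reads in FH, 5, 10 and 11 in H, 3, 6 and 49 in F, and 2, 5 and 26 in C. At T5 it had 2, 12 and 118 reads in FH, 1, 7 and 69 in H, 5, 10 and 51 in F, and 12, 40 and 53 in C. All groups of T4, and all groups of T5, overlapped.

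VIT_16s0100g01100 had 0, 63 and 81 reads in FH at T2, against 1, 5 and 9 in F. It had 3, 7 and 15 reads in H at T2, against 0, 0 and 2 in C. The FH library without a read was replicate 1, the lowest FH library of the whole cluster, while H and C did not overlap. The log2 fold change was 3.24 for FH over F (SE 1.23, adjusted p = 0.120) and 3.45 for H over C (adjusted p = 0.157). VIT_16s0100g01170 had 5, 25 and 54 reads in FH at T2, against 0, 1 and 2 in F, a ratio of 28.2 (95% counting interval 9.33 to 140, adjusted p = 0.0744). It had 1, 2 and 28 reads in H, against 0, 0 and 1 in C, a ratio of 30.1 (5.01 to 1225, adjusted p = 0.0840). Most H reads came from replicate 2. Counting intervals cover counting error only, not the spread between vines.

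**Figure D3:**
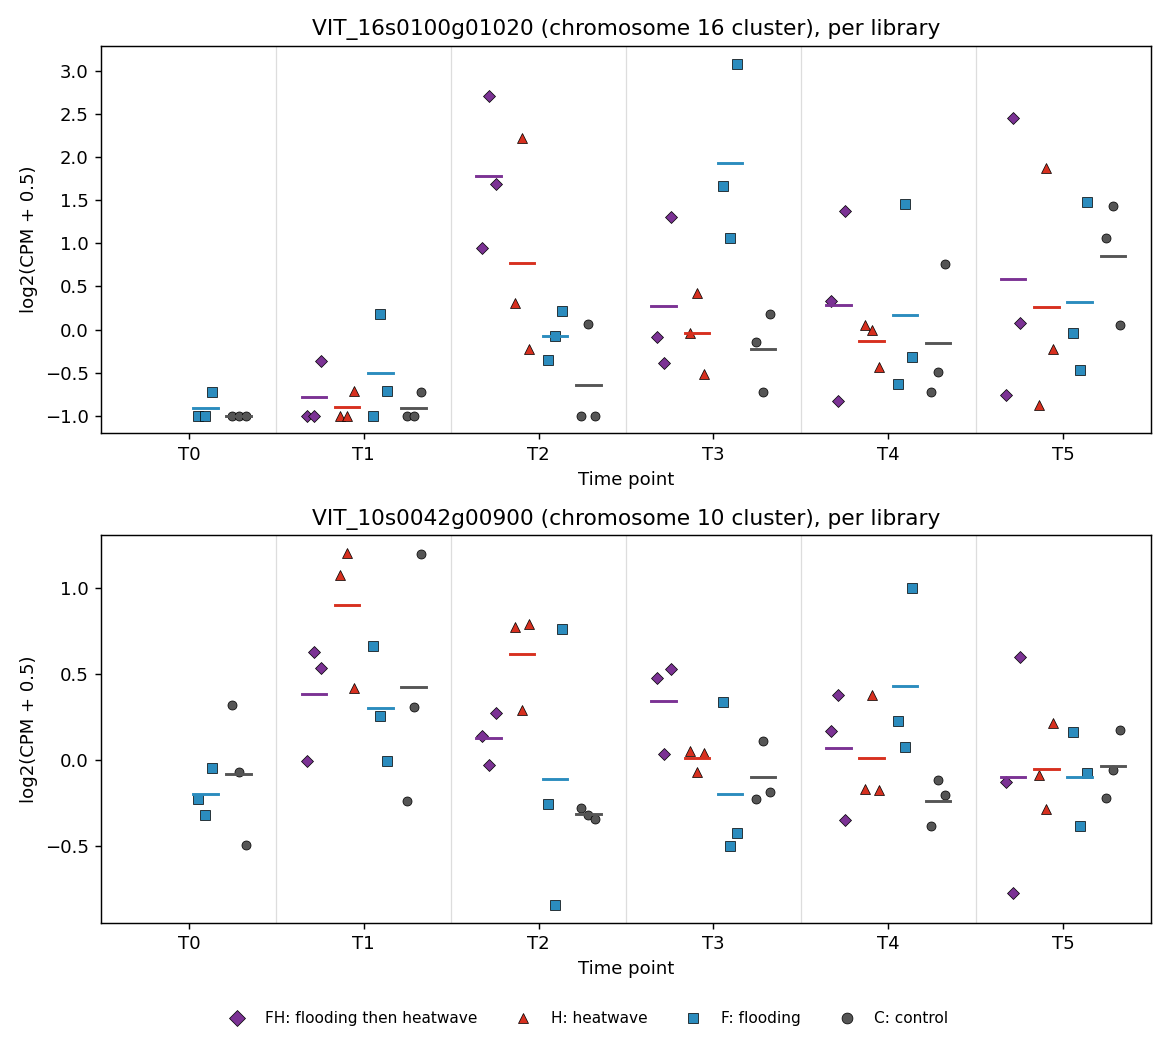
The most abundant stilbene synthase of each cluster, VIT_16s0100g01020 and VIT_10s0042g00900, as log2(CPM + 0.5) by time point. Each point is 1 library and each bar the mean of the log2 values of 3, with FH, H, F and C left to right. VIT_16s0100g01020 has 0 to 2 reads in each library of T0 and at most 11 at T1, and spreads widely from T2, whereas VIT_10s0042g00900 has reads in all 66 libraries.

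Summer stress without flooding was tested by H over C. At T2, 2 members were called, MYB15 and VIT_10s0042g00900, both higher, where 13.7% of all genes tested were called in either direction and 6.17% higher. At an unadjusted p under 0.05 there were 6 members, the others being MYB14, VIT_16s0100g01020, VIT_16s0100g01100 and VIT_16s0100g01170. EdgeR called 0 members at T1, T3, T4 and T5, with 0, 1, 0 and 2 at an unadjusted p under 0.05, and DESeq2 also called 0 at each, but gave no adjusted p to 17, 3, 11 and 3 of the 18 tested members. Of all genes, 0.373% were called at T1, 0.174% at T3, 0.445% at T4 and 12.2% at T5. Those at an unadjusted p under 0.05 were MYB15 at T3, and MYB14 and VIT_16s0100g01100 at T5, these last both with lower means in H.

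Summer stress after spring flooding was tested by FH over F, a comparison that shares no library with H over C. At T2, 2 members were called, MYB14 and MYB15, both higher, against 2.85% of all genes in either direction and 1.38% higher. At T3, 5 members of the chromosome 16 cluster were called, all lower, against 2.95% of all genes in either direction and 1.69% lower. VIT_16s0100g00800 had 0, 0 and 0 reads in FH and 3, 17 and 59 in F, at least 25.5-fold lower against a floor of 3 reads over the group (adjusted p = 0.0186). VIT_16s0100g00860 had 0, 0 and 1 reads in FH and 3, 19 and 78 in F, a ratio of 0.0103 (counting interval 0.000259 to 0.0589, adjusted p = 0.0248). In the other 3, all FH libraries had 0 reads and F had 3, 3 and 114 reads of VIT_16s0100g00900, 4, 8 and 79 of VIT_16s0100g01000, and 2, 2 and 48 of VIT_16s0100g01010. All 5 calls were lost without F replicate 3, the library with 1280 cluster reads, with adjusted p-values of 0.167 for VIT_16s0100g00800, 0.244 for VIT_16s0100g00860, 0.527 for VIT_16s0100g00900, 0.380 for VIT_16s0100g01000 and 0.475 for VIT_16s0100g01010. Leaving out any 1 FH library also ended the calls of VIT_16s0100g00860, VIT_16s0100g00900, VIT_16s0100g01000 and VIT_16s0100g01010, leaving out FH replicate 2 or 3 that of VIT_16s0100g00800, and leaving out F replicate 2 that of VIT_16s0100g01000. DESeq2 called 0 members at T3, since its filter on mean counts gave these 5 no adjusted p. A fit to the T3 libraries alone also called 0, but these 5 did not reach its filter and were not tested in it. At T1, T4 and T5 edgeR called 0 members of FH over F, with 0, 1 and 0 at an unadjusted p under 0.05, and DESeq2 called 0, 1 and 0, with no adjusted p for 17, 11 and 13 members. The member at T4 was MYB15 in both. The shares of all genes called were 0.00511% at T1, 0.194% at T4 and 13% at T5.

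Spring flooding without summer stress, F over C, gave 1 called member, MYB15 at T1, where 14.7% of all genes were called. At T0, T2, T3, T4 and T5 edgeR called 0 members, with 1, 0, 14, 1 and 0 at an unadjusted p under 0.05, and DESeq2 called 0 at each, with an adjusted p for all 18 tested members. The shares of all genes called were 0.0102% at T0 and 0% at T2, T3, T4 and T5. The 14 members at T3 were stilbene synthases of chromosome 16, all with higher means in F, of which F replicate 3 held most reads. Those at T0 and T4 were VIT_16s0100g00860 and VIT_10s0042g00900. Spring flooding under summer stress, FH over H, gave 0 called members at each of T1 to T5 by edgeR and by DESeq2, with 1, 1, 0, 0 and 0 at an unadjusted p under 0.05, and the shares of all genes called were 0.65%, 0%, 1.36%, 0.0614% and 0%. Those members were MYB15 at T1 and VIT_16s0100g01100 at T2. DESeq2 gave no adjusted p to 17, 0, 13, 3 and 17 of the 18 tested members at T1 to T5 in FH over H. An interaction term tested whether the response to summer stress differed between vines with and without prior flooding. It called 0 members at each time point by edgeR and by DESeq2, with 0, 0, 7, 0 and 0 at an unadjusted p under 0.05 for T1 to T5, and the shares of all genes called were 0%, 0%, 0%, 0.00511% and 0.506%. For the interaction DESeq2 gave an adjusted p to all 18 at T1 to T4 and to 1 at T5. With 3 libraries a group, this does not show that the responses were alike.

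T2 over T1, the step that spans the onset of the heatwave in FH and H, was tested within each treatment. Within a treatment, heat and ripening cannot be told apart in this step. In FH and H, which had no T0 libraries, it was the one step between neighbouring time points from T1 on in which edgeR called members. In FH 6 members were higher, MYB14, MYB15 and 4 genes of chromosome 16, against 6.23% of all genes in either direction and 2.65% higher. VIT_16s0100g00770 had 4, 27 and 41 reads at T2 and 0, 0 and 1 at T1, a ratio of 69.8 (counting interval 12.1 to 2794, adjusted p = 0.0420). VIT_16s0100g01170 had 5, 25 and 54 reads at T2 and 0, 0 and 1 at T1, a ratio of 81.4 (14.2 to 3253, adjusted p = 0.0289). VIT_16s0100g01020 had 26, 50 and 101 reads at T2 and 0, 0 and 5 at T1, with a log2 fold change of 5.12 (SE 1.54, adjusted p = 0.0334). VIT_16s0100g01100 had 0, 63 and 81 reads at T2 and 0, 1 and 4 at T1, so that its groups overlapped (log2 fold change 4.84, adjusted p = 0.0282). These calls depended on single libraries. Without T1 FH replicate 2 or T2 FH replicate 2, 0 of the 6 members were called, with adjusted p-values of VIT_16s0100g01020 of 0.156 and 0.126, and 2 were called without T1 FH replicate 1 and 3 without T1 FH replicate 3 or T2 FH replicate 3. In H 2 members were higher, MYB15 and VIT_16s0100g01020, against 24.2% of all genes in either direction and 10.1% higher. VIT_16s0100g01020 had 7, 11 and 75 reads in H at T2 and 0, 0 and 2 at T1, a ratio of 42.4 (11.4 to 355, adjusted p = 0.0167), and was not called without T1 H replicate 1, T1 H replicate 2 or T2 H replicate 2 (adjusted p = 0.0667, 0.0728 and 0.163). MYB14 and VIT_16s0100g01170 were called in this step of H without T2 H replicate 1 (adjusted p = 0.0374 and 0.0491) or T2 H replicate 3 (adjusted p = 0.0358 and 0.0359), but not by edgeR with all libraries (adjusted p = 0.0605 and 0.0537). With all libraries DESeq2 called VIT_16s0100g01170 (adjusted p = 0.0302) and VIT_16s0100g00770 (adjusted p = 0.0485) in this step of H, and edgeR's fit to only the time points compared called VIT_16s0100g01170 (adjusted p = 0.0274). In C edgeR called MYB15 alone in the same step, against 19.2% of all genes, and DESeq2 called 2 members, the other being VIT_10s0042g00900, with a lower mean at T2. In F edgeR called 0 members, with 0 at an unadjusted p under 0.05 and 0 by DESeq2, against 2.69%. DESeq2 gave no adjusted p to 3 of the 18 tested members in this step of FH and to 15 in F. Differences of these steps between treatments were not tested.

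The other steps changed few members. T1 over T0 called MYB15 alone, in C (16.5% of all genes) and in F (39.6%). From T3 on edgeR called 0 members in any step. In C the steps T3 over T2, T4 over T3 and T5 over T4 had 0, 3 and 1 members at an unadjusted p under 0.05 and 0, 1 and 0 by DESeq2, against 0%, 14.7% and 3.86% of all genes. In F these steps had 15, 8 and 0 at an unadjusted p under 0.05 and 0 by DESeq2, against 0.00511%, 1.35% and 2.02%. In H they had 1, 2 and 0 and 0 by DESeq2, against 9.65%, 16.9% and 0.322%, and in FH 3, 3 and 0 and 0 by DESeq2, against 0.818%, 2.45% and 7.94%. For these 3 steps DESeq2 gave no adjusted p to 13, 0 and 13 of the 18 members in FH and 12, 0 and 15 in H. The numbers were 0, 3 and 15 for the F berries and 0, 0 and 16 for the C berries.

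From T0 to harvest the summed level of the cluster rose in the control berries, from 0.419 ± 0.197 to 10.1 ± 4.70 CPM, and this sum was not tested. In C 13 of the 18 tested members were called higher at T5 and 0 lower, 12 on chromosome 16 and MYB15. The comparison called 56.9% of all genes in either direction, 26.0% higher and 30.9% lower. Members without a read at T0 could not be lower at T5, and tested members had to reach 0.5 CPM in 3 libraries somewhere. The count of members is thus a description. VIT_16s0100g01020 had 12, 40 and 53 reads at T5 and none at T0, at least 27.4-fold higher against the floor of 3 reads over the group (adjusted p = 0.00314). VIT_16s0100g01170 had 13, 23 and 37 reads at T5 and none at T0, at least 19.1-fold higher (adjusted p = 0.00301). VIT_16s0100g00780 had 14, 16 and 28 reads and VIT_16s0100g00770 6, 23 and 25 at T5, with none at T0, at least 15.2-fold and 14.1-fold higher. In none of these 4 did the groups overlap, and each kept its call in all 6 fits that left out a library. VIT_16s0100g00830 had 5, 16 and 19 reads at T5 and 0, 0 and 1 at T0, a ratio of 31.4, and VIT_16s0100g00750 1, 19 and 28 reads at T5 and 0, 0 and 2 at T0, a ratio of 18.8. The other 6, all at 0 reads at T0, were VIT_16s0100g00860, VIT_16s0100g00880, VIT_16s0100g00900, VIT_16s0100g00910, VIT_16s0100g01000 and VIT_16s0100g01010, with bounds of at least 3.92-fold to 8.89-fold higher. With 1 library of T0 left out, 7 or 8 members were called: 8 without C replicate 1, and 7 without C replicate 2 or without C replicate 3. VIT_16s0100g01100 was not called, with 5, 5 and 8 reads already present in C at T0. In F 2 members were higher at T5 than at T0, against 54.2% of all genes in either direction and 24.0% higher. They were MYB15 and VIT_16s0100g01020, which had 5, 10 and 51 reads at T5 and 0, 0 and 2 at T0 (ratio 28.0, counting interval 7.45 to 236, adjusted p = 0.0199). That call of VIT_16s0100g01020 was lost without T0 F replicate 1 (adjusted p = 0.0623), T0 F replicate 2 (adjusted p = 0.0678) or T5 F replicate 3 (adjusted p = 0.177). T5 F replicates 1 and 2 were unusually alike, so the comparison in F may rest on fewer independent libraries than were counted. EdgeR's fit to all libraries called MYB14 in neither treatment. With only the time points compared, MYB14 was called lower in F (log2 fold change of T5 over T0 -1.55, adjusted p = 0.0164) and VIT_16s0100g01020 in F was not called (adjusted p = 0.0522).

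**Figure D4:**
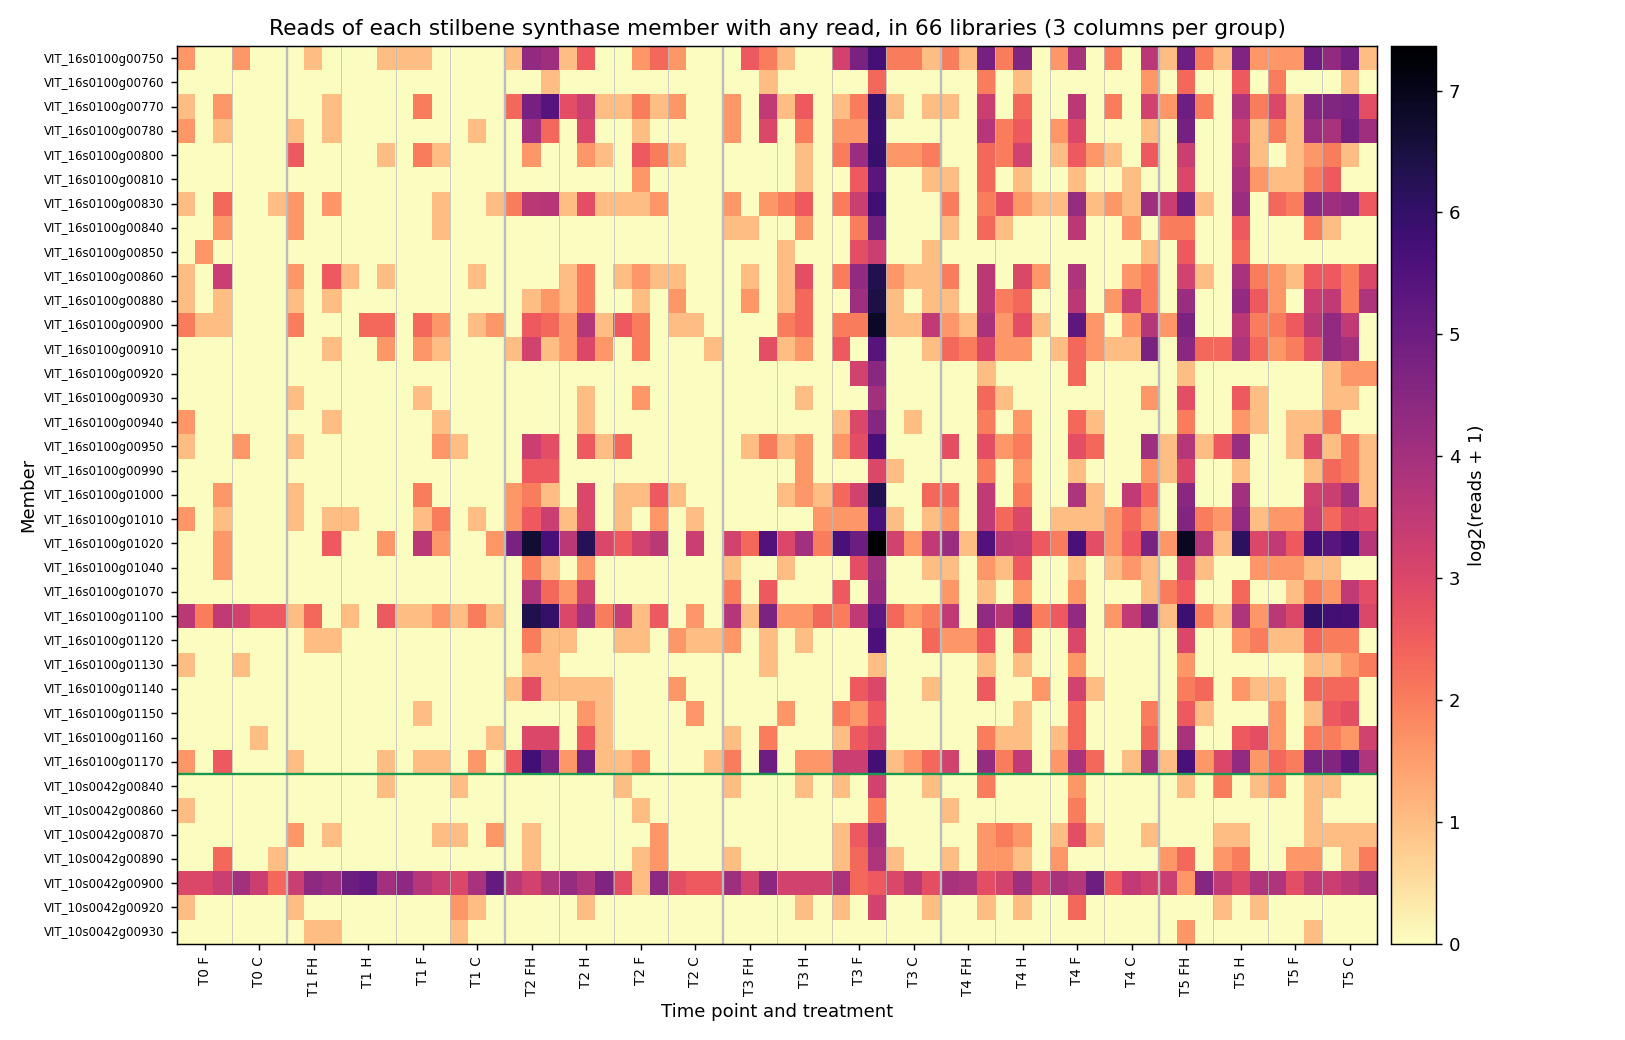
Reads of each stilbene synthase with any read in the 66 libraries, as log2(reads + 1). Members run down in order of ID, chromosome 16 above the green line and chromosome 10 below it, and each group has 3 columns. The dark column in F at T3 is replicate 3, in which all 30 chromosome 16 members with reads were detected, while VIT_10s0042g00900 has reads in every library.

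The members did not share one profile in the libraries where the cluster was high. In 17 libraries with at least 100 cluster reads, the share of VIT_16s0100g01020, VIT_16s0100g01100 and VIT_16s0100g01170 together was computed with a Wilson 95% interval. It was 62.3% in FH replicate 2 at T2 (57.3 to 67.0%) and 19.8% in F replicate 3 at T3 (17.7 to 22.04%). In FH replicate 2 at T2 the cluster reads included 101 of VIT_16s0100g01020, 81 of VIT_16s0100g01100 and 54 of VIT_16s0100g01170, but only 5 of VIT_16s0100g00900, 1 of VIT_16s0100g00880 and 0 of VIT_16s0100g00860. In F replicate 3 at T3 there were 164 reads of VIT_16s0100g01020, 114 of VIT_16s0100g00900, 86 of VIT_16s0100g00880, 79 of VIT_16s0100g01000 and 78 of VIT_16s0100g00860. By time point the share of the 3 genes was 54.1 to 62.3% in the 3 such libraries of T2, 19.8 to 70.2% in 4 of T3, 30.1 to 34.9% in 4 of T4 and 29.6 to 45.2% in 6 of T5. MYB14 in the same libraries was 3.44 to 4.96 CPM at T2, 0.409 to 2.83 CPM at T3, 0.0458 to 0.599 CPM at T4 and 0.254 to 0.835 CPM at T5. At T3 the highest share, 70.2%, was in FH replicate 3, with 2.83 CPM of MYB14, and the next, 57.0% (47.5 to 65.99%), in F replicate 1, with 1.80 CPM. These libraries were taken for their read number, and no test was made.

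**Figure D5:**
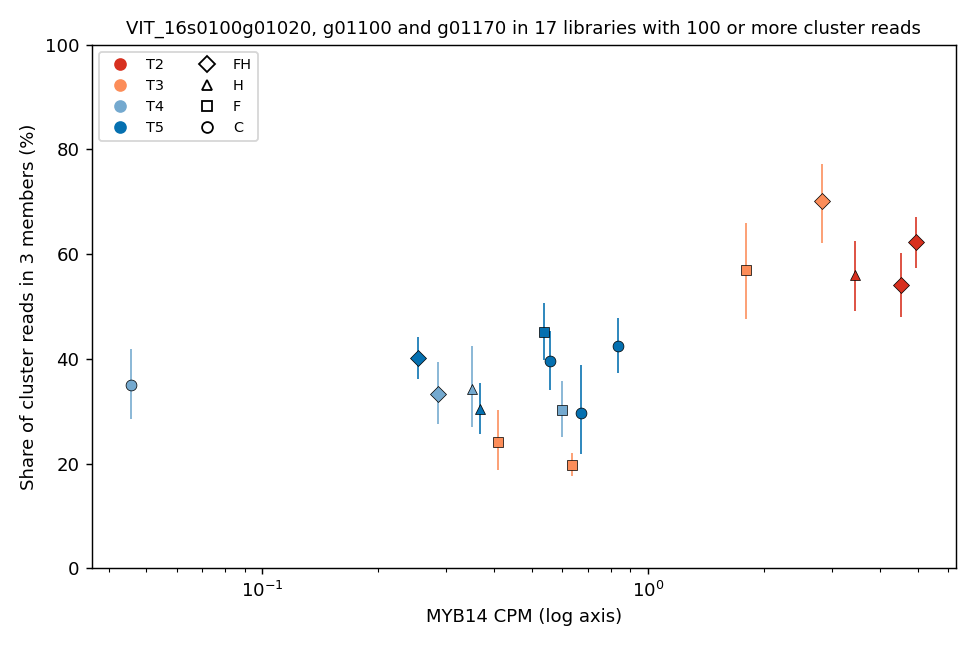
Share of cluster reads in VIT_16s0100g01020, VIT_16s0100g01100 and VIT_16s0100g01170 (percent) against MYB14 (CPM, log axis) in the 17 libraries with at least 100 cluster reads. Bars are Wilson 95% intervals, colour gives the time point and marker the treatment. The 3 libraries of T2 and FH replicate 3 of T3 sit at the upper right, with shares of 54.1 to 70.2% and 2.83 to 4.96 CPM of MYB14, and F replicate 1 of T3 has a share in the same range (57.0%) at 1.80 CPM.

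Across all 66 libraries, MYB15, MYB14 and the leading gene of each cluster were set against each other as log2(CPM + 0.5), in 6 relations with permutation p-values adjusted over them. Pooled over groups, MYB15 and VIT_16s0100g01020 had a Pearson r of 0.54 and a Spearman rho of 0.64 (permutation test, adjusted p = 0.00012 and 6e-05), and r was 0.53 without the 2 libraries farthest from the median of MYB15. Within groups, after the group means were removed, r was 0.20 and rho 0.27 (adjusted p = 0.260 and 0.107), and r was 0.31 without the 2 farthest libraries. The relation thus passed the test when pooled and not within groups, which does not show that it is absent there. The pooled permutations shuffled all 66 libraries without regard to their groups, so the pooled p-values may be too small. MYB14 and VIT_16s0100g01020 had a pooled r of 0.35 (adjusted p = 0.0119) and a rho of 0.06 (adjusted p = 0.873), and r fell to 0.19 without FH replicates 2 and 3 of T2, so the pooled relation rested on those libraries. Within groups r was 0.39 and rho 0.32 (adjusted p = 0.0654 and 0.0968), and r was 0.28 without the 2 farthest libraries. MYB14 and MYB15 had a pooled r of 0.09 and, within groups, an r of 0.24 and a rho of 0.32 (adjusted p = 0.0654 and 0.0934). No relation of VIT_10s0042g00900 passed the test, and its r with VIT_16s0100g01020 was -0.21 pooled and -0.27 within groups (adjusted p = 0.182 and 0.178).

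The chromosome 16 members varied together from library to library within groups. Ranked by the within-group r with VIT_16s0100g01020 over the 66 libraries, the other 14 tested members of the cluster were all among the first 41 of the 19552 other genes, with r from 0.59 to 0.87 and a median of 0.75. Without F replicate 3 of T3 they were among the first 49, with r from 0.58 to 0.86. The 20 genes that flank the cluster by ID had r from -0.41 to 0.34, MYB14 ranked 598 and MYB15 ranked 3685. Of these flanking genes 1 was called higher in H over C at T2, where 6.17% of all genes tested were called higher. In C from T0 to T5 the calls went both ways, with 5 higher and 7 lower, against 26.0% and 30.9% of all genes tested. All these values describe the libraries and carry no test. A weakly expressed member entered the ranking only if it reached 0.5 CPM in 3 libraries, which favours members that were high in the same few libraries. The split of reads between near-identical copies is also uncertain, so the ranks do not measure how far the members vary together.

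The chromosome 10 cluster behaved differently and was carried by 1 gene. VIT_10s0042g00900 held 790 of its 969 reads (81.5%) and had 1 to 35 reads in each of the 66 libraries, with a median of 10. At T2, VIT_10s0042g00900 had 13, 18 and 24 reads in H, against 5, 5 and 6 reads in C. The groups did not overlap, with means of 1.05 ± 0.287 CPM in H and 0.304 ± 0.0173 CPM in C, and the log2 fold change of H over C was 1.77 (SE 0.64, adjusted p = 0.0489). The call was lost in each of the 6 fits that left out 1 library, H replicates 1, 2 and 3 and C replicates 1, 2 and 3 alike, with adjusted p-values of 0.0616 to 0.137 and log2 fold changes of 1.64 to 1.98, and with the replicate number as a block (adjusted p = 0.0649). It was also lost with no filter on the reads (adjusted p = 0.0660) and in a fit to the T2 libraries alone (adjusted p = 0.135). FH had 8, 11 and 13 reads at T2, against 1, 6 and 20 in F, and those groups overlapped (log2 fold change of FH over F 0.19, adjusted p = 0.897). In C the 5, 5 and 6 reads of T2 stood against 7, 14 and 34 reads at T1, and T2 over T1 in C was called lower by DESeq2 (log2 fold change -1.66, adjusted p = 0.0447) but not by edgeR (-1.63, adjusted p = 0.0558). Its highest group mean was at T1, before the heatwave, with 15, 31 and 35 reads in H, against 7, 14 and 34 in C, where the groups overlapped as well. F at T4 had 12, 14 and 30 reads, against 5, 8 and 10 in C (log2 fold change of F over C 1.34, adjusted p = 0.539). The next members by reads were VIT_10s0042g00890 with 56 reads and VIT_10s0042g00870 with 53. The cluster other than VIT_10s0042g00900 had 47 reads in F replicate 3 of T3 and 0 to 15 in any other library.

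The 2 HCT genes that compete for p-coumaroyl-CoA were called in no comparison of H over C or FH over F. At T3, VIT_09s0018g01190 had 76, 124 and 166 reads in H, against 22, 40 and 49 in C, and VIT_11s0037g00440 had 48, 94 and 147 reads in H, against 24, 27 and 39 in C. Both pairs were apart, with log2 fold changes of H over C of 1.92 (adjusted p = 0.0991) for VIT_09s0018g01190 and 1.88 (adjusted p = 0.162) for VIT_11s0037g00440. From T0 to T5 in C, VIT_09s0018g01190 fell (log2 fold change -1.42, adjusted p = 0.0213) and VIT_11s0037g00440 rose (1.83, adjusted p = 0.0184). VIT_05s0049g01010, the ID next to MYB15, was lower at T2 than at T1 in H (log2 fold change -3.16, adjusted p = 0.0443) and at T5 than at T0 in C (-4.42), both steps in which MYB15 was higher. The MADS-box gene VIT_10s0042g00820, next to the chromosome 10 cluster, had 0 to 9 reads in any library and was not tested.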

How the data were processed

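Berry RNA was measured in 66 libraries (TruSeq Stranded mRNA, single-end), 3 for each of 22 groups taken from the labels. The labels do not say that a replicate is a separate vine. The study's methods name 5 vines per treatment and time as biological replicates but do not tie a library to a vine. The p-values therefore measure the spread between these libraries, which may in part be technical. F replicates 1 and 2 of T5 were far more alike than any other pair within a group. A chi-square measure of their difference, divided by its degrees of freedom, was 1.92, against 9.44 to 313 for the other pairs. Whether they came from separate vines is not known. Tests with F at T5 may thus rest on fewer than 3 independent libraries, and their p-values may be too small. As deposited by the authors, the values are raw read counts per gene row, not normalized, from uniquely mapping reads aligned with TopHat to the revised 12X Pinot Noir genome. The paper states that reads were not trimmed and were counted with Bedtools, whereas the submitters' processing notes name Trimmomatic 0.39 and featureCounts, with no version in the sources used here for the other tools. Of 29688 rows, 300 share an ID and were summed, which left 29537 IDs.

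Tests between groups were made with edgeR 4.0.16 in R 4.3.3 (TMM, quasi-likelihood, robust) in 1 model with a mean per group (44 residual degrees of freedom). The 19553 genes that reached 0.5 CPM in 3 or more libraries entered the tests. A call needed a fold change of 1.5 or more and an adjusted p (Benjamini-Hochberg over these genes) below 0.05. The procedure was tested on simulated data with 1 common spread for all genes. Only genes with a mean of at least 1 CPM were changed in it. MYB14 (0.718 CPM) and all stilbene synthases (at most 0.928 CPM, for VIT_16s0100g01020) lie below that level. The simulation therefore does not show how well changes of these members are detected. Folds against groups without reads are bounds against 3 reads over the group. Relations used 100000 permutations, two-sided.

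The members and lists were chosen with earlier results of these data known. Named were the MYB genes, the 8 and 3 most abundant members of the clusters, and up to 5 further called members with the largest change per comparison. The HCT, HSP101, ACO1, ACC synthase, pectin lyase, MADS-box and VIT_05s0049g01010 genes were named as well. Members at an unadjusted p under 0.05 were named after their values were seen. The alternatives were DESeq2 1.42.0, RLE normalization, no filter, 5 CPM as the filter, the replicate number as a block, only the time points compared, a pseudocount of 2, and leaving out each library. The ranking by likeness without 1 library was added after seeing the data.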

Additional observations from a re-analysis of the deposited data

How the results depend on the processing

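No called result changed direction under any alternative run. Without the 2 farthest libraries the pooled r turned to -0.04 for MYB14 with MYB15 (0.09 with all) and to -0.01 for MYB15 with VIT_10s0042g00900 (0.04 with all), and neither passed the test. RLE normalization left every count of called members the same. For H over C (2 members called), 1 was called with no filter, with a filter at 5 CPM and with the replicate block. For FH over F (7 called), 1 was called at 5 CPM, 3 with the replicate block, 0 with only the time points compared and 3 with DESeq2. The chromosome 16 members called at T3 did not reach the filter among the T3 libraries alone, and DESeq2 gave them no adjusted p. For the steps in C (2 called), 1 was called with only the time points compared and 4 with DESeq2, and for the steps in H (2 called) DESeq2 called 4. For the steps in FH (6 called) and T5 over T0 in C (13 called) 2 were called at 5 CPM, a filter that left 2 members tested, against 18 in the main analysis, 39 with no filter and 16 with only the time points compared. The causes of the other changes were not tested. T5 over T0 in F (2 called) gave 4 with the replicate block and 2 with only the time points compared, of which 1 was another member. Same replicate numbers did not deviate together (median r of -0.0091 over 93 pairs, against 0.021 over 186 pairs of different numbers), so the numbers were not taken as pairs.

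Leaving out 1 library gave 1 to 3 called members for H over C, 2 to 9 for FH over F, 0 to 1 for F over C, 0 to 1 for FH over H, 0 for the interaction, 1 to 2 for the steps in C and in F, 1 to 4 in H, 0 to 7 in FH, 7 to 11 for T5 over T0 in C and 1 to 3 in F. With a pseudocount of 2, the within-group r of MYB14 was 0.44 with VIT_16s0100g01020 and 0.24 with MYB15, and both passed the threshold (permutation test, adjusted p = 0.0418 each). Depth limits these results, since 18 of the 47 members had enough reads to be tested.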
